A study of Mus musculus with 4 samples.

Results

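The genes described here encode the splicing factors of the SR, hnRNP and snRNP families together with the kinases that phosphorylate SR proteins. They were chosen by symbol, as the Srsf, Hnrnp (with Hnrpdl and Hnrpll), Tra2, Sf3a, Sf3b, U2af, Clk, Snrp and Srpk genes. Of 63 such genes with a value in every library, 62 had a mean FPKM of at least 1 and were kept, out of 11953 genes tested. FPKM is a fragment count corrected for the length of the transcript and for the size of the library. The gene left out was Srpk3, at 0.0436 FPKM in WT fasted, 0.0863 in KR fasted, 0.0958 in WT refed and 0.209 in KR refed, and the gene just inside the limit was Srsf12, with a mean of 1.05. The 62 genes were 13 SR proteins, 20 hnRNPs, 12 Snrp genes, 8 SF3A and SF3B subunits, 3 U2AF genes, 4 Clk kinases and 2 Srpk kinases.

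Their transcripts were measured by RNA sequencing of isolated pancreatic islets, which hold the insulin, glucagon and somatostatin cells, of C57BL/6 mice. The groups were wild type (WT) fasted, KR mutant fasted, WT refed and KR mutant refed. In the KR mutant, as background knowledge of the study has it, the endogenous gene of the transcription factor FoxO1 carries arginine in place of the lysines that are acetylated, in every cell and not in beta cells alone. The fast lasted 48 h in the sample titles but 24 h in the extraction protocol, and the titles give 6 h of refeeding. Each group was 1 library of islets pooled over 3 mice of a genotype, so no difference between 2 libraries has a replicate check.

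Splicing removes introns from newly made RNA, and the spliceosome that does it is built from small nuclear ribonucleoproteins (snRNPs) whose RNAs are held in a ring of Sm proteins. The U1 snRNP marks the 5′ splice site, while U2AF and the SF3A and SF3B complexes of the U2 snRNP mark the 3′ splice site and the branch point. SR proteins carry stretches of alternating arginine and serine and mostly promote the use of the exons they bind, whereas many hnRNPs repress exons. Clk kinases in the nucleus and Srpk kinases in the cytoplasm phosphorylate the arginine-serine stretches and so set where SR proteins sit and whether they are active. Many of these genes are known to tune their own level by splicing in an exon that sends their RNA to nonsense-mediated decay.

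The upstream sequence of 5 members is shown because they stand for both directions found in the values that follow. Srsf3, Srsf7 and Hnrnpa2b1 were higher in both refed libraries, and Srsf4 and Clk3 were lower. Each stretch runs from 250 bases before the annotated start of the gene to 50 bases after it, 5′ to 3′ on the strand of the gene, from RefSeq on build GRCm38.p6. Capitals mark every CCAAT box (CCAAT on either strand) and every ETS motif (CCGGAAG on either strand), and the windows are chr17:29032410-29032709 (plus strand), chr17:80207256-80207555 (minus), chr6:51469845-51470144 (minus), chr4:131873387-131873686 (plus) and chr9:57765065-57765364 (minus), in the order of the lines.
Srsf3: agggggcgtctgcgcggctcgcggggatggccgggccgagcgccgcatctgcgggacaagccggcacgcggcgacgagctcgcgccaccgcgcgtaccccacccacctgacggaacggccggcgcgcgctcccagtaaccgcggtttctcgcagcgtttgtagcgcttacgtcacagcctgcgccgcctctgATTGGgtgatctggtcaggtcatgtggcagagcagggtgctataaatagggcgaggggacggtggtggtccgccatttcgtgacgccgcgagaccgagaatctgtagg
Srsf7: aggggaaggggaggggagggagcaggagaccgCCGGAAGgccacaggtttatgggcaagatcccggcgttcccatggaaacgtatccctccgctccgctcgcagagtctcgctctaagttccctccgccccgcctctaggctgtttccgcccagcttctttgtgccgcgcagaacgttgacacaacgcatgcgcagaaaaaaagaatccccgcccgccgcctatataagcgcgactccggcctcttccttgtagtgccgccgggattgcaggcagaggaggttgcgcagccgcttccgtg
Hnrnpa2b1: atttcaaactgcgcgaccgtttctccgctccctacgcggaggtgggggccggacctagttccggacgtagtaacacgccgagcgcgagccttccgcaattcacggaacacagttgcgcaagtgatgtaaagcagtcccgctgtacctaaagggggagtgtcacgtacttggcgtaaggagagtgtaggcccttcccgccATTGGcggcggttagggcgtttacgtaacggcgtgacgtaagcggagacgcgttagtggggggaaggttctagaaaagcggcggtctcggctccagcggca
Srsf4: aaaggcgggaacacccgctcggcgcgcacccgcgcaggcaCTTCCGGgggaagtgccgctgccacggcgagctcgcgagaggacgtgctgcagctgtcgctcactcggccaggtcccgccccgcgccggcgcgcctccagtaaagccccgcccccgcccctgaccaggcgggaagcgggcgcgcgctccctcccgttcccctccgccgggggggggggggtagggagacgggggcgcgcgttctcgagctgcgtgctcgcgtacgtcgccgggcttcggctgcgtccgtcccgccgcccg
Clk3: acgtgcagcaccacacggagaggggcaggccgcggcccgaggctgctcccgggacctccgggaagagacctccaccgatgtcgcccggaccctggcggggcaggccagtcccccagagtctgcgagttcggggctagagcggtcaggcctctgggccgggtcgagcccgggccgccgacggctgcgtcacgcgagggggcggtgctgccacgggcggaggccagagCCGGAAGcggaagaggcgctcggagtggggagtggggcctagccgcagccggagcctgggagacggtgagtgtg

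RefSeq gives 2 start sites for Hnrnpa2b1 and 3 for Srsf4, and the window of the first is shown. The third window of Srsf4 holds neither motif. A CCAAT box stood 58 bases before the start of Srsf3 and 51 bases before that of Hnrnpa2b1. An ETS motif stood 218 bases before the start of Srsf7, which rose, and 210 and 24 bases before those of Srsf4 and Clk3, which fell. Of the 62 members, 54 had a promoter in the RefSeq table, and a gene counts if any of its windows holds the motif. A CCAAT box was present in 50% of them, against 41.1% of the 27025 genes of the table. The ETS motif was present in 29.6% of members against 9.93% of all genes, the GC box GGGCGG in 74.1% against 38.2%, and the NRF1 core TGCGCA in 29.6% against 8.79%, each counted on both strands. The motifs were counted separately, and none contains another. The FoxO core GTAAACA was present in Snrpf and Srsf6, which is 3.7% of members against 4.05% of all genes. The cyclic AMP response element TGACGTCA was present in 7.41% of members against 2.03%, and the E-box CACGTG in 13% against 8.09%. By direction in refed islets, a CCAAT box was present in 16 of the 31 matched members that rose and in 4 of the 9 that fell, the ETS motif in 7 of 31 and 3 of 9, and the GC box in 20 of 31 and 9 of 9. The genes of the table were not limited to those expressed in islets, whereas the members were kept by their FPKM. Whether the shares of members differ from those of other expressed genes was not tested. These shares describe letters in a window and not binding.

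The refed libraries were shallower, with depths relative to fasted WT of 0.683 in WT and 0.418 in KR, against 1.01 in fasted KR. The deposited bounds gave a median of 1758, 1871, 1763 and 1035 fragments per member in WT fasted, KR fasted, WT refed and KR refed, and Srsf12, the lowest member, had 91, 75, 65 and 16. Islet markers were abundant: summed over 6 beta cell genes (Ins2 lacked a value in the fasted KR library) FPKM was 40400 and 55000 in fasted and 57300 and 80500 in refed islets (WT, then KR), and 4 alpha cell genes summed to 21900 to 27000. The acinar sum was 35.1 to 59.5. The 4 adipocyte markers summed to 178 and 134 in the fasted and 182 and 141 in the refed libraries (WT, then KR). Adipoq and Plin1 were listed at 0, so that sum came from Fabp4 and Lpl. Of 2 tested adipocyte genes, 1 was lower in refed islets and 2 were lower in KR. Markers of other cell types moved with feeding. Of the tested markers, 3 of 4 endothelial, 4 of 6 macrophage and 4 of 5 stellate cell genes were lower in refed islets, with summed FPKM of 14.5 and 8.95 in the fasted and 6.25 and 4.90 in the refed libraries for endothelium (WT, then KR). The macrophage sum was 257 in both fasted libraries and 200 and 183 in the refed ones, and the stellate sum was 32.3 and 29.8 in the fasted and 17.4 and 20.4 in the refed ones. Markers of other types were higher in refed islets, namely both tested pancreatic polypeptide cell genes (sums of 14900 and 13900 in the fasted and 20800 and 20900 in the refed libraries), both tested duct genes (432 and 414, then 525 and 466) and the 1 tested acinar gene. Of 6 beta cell markers, 4 were higher in refed islets and 5 were higher in KR, whereas markers of proliferating cells summed to under 1 FPKM in every library. The part of these shifts in the splicing factor values was not tested, and in a bulk sample fewer cells of a type and less RNA per cell cannot be told apart.

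Feeding state was the factor along which the splicing factors separated. In the words used from here on, a gene rose or fell if it passed an adjusted p of 0.05 in limma's additive model of feeding and genotype on log2(FPKM + 1), over all 11953 genes. By this test 34 of 62 members (54.8%) rose in refed islets, beside 27.7% of all tested genes, and 10 (16.1%) fell, beside 29.2%. The median fitted change of the members was 0.22 on the log2 scale, and that of all tested genes was -0.01. The single-library ratios had member medians of 0.23 in WT and 0.19 in KR. All 34 members that rose were higher in the refed library of both genotypes, and all 10 that fell were lower in both. The model counts a difference of the refeeding change between genotypes as error and so favours genes that agree. This agreement is therefore no separate support. Only Srsf3, Hnrnpa1 and Hnrpdl were at least 2-fold higher in refed than in fasted WT on this scale, and only Srsf3 in KR. No member was 2-fold lower in either. The row of Hnrnpa1 overlaps that of Gm5643, with which it shares sequence. Their summed FPKM had a log2 ratio of 0.92 in WT, under 2-fold. In WT, 1.11% of all tested genes were 2-fold higher and 2.4% lower, and in KR 0.577% and 1.75%. The test has 1 residual degree of freedom and draws its error mostly from other genes, and no gene was called, member or other, when genes of low FPKM were left in.

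The SR proteins moved most. Of 13, 10 rose (76.9%, beside 27.7% of all tested genes) and 2 fell (15.4%, beside 29.2%). Their median fitted change was 0.54. Their summed FPKM was 516 in fasted and 740 in refed WT islets, and 509 and 717 in those of KR.

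Srsf3, the smallest SR protein, which acts in splicing and in export of RNA from the nucleus, had the highest change of all members. The Srsf3 gene lies on chromosome 17 at 29169604 to 29180317 of mm9. Its FPKM was 24.1 in WT fasted, 27.9 in KR fasted, 113 in WT refed and 95.0 in KR refed. The refed libraries were far above the fasted ones, by 4.68 times in WT and 3.41 times in KR. On the log2 scale the fitted change was 1.96 ± 0.10 (SE), with an adjusted p of 3.98e-06 in limma, and it ranked 13 among the 11953 genes tested. Shared sequence was counted over the 50-base stretches of the coding transcript with the longest coding sequence, with matches on either strand. For Srsf3, 31.5% of these stretches also occur in other annotated genes, so that part of its level depends on how the reads were assigned.

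Tra2b, an SR-like protein that activates exons with purine-rich enhancers, read 30.4 FPKM in WT fasted, 29.3 in KR fasted, 57.1 in WT refed and 50.3 in KR refed. Srsf2, a nuclear speckle protein that promotes exon inclusion, read 34.6, 35.9, 66.2 and 59.3 FPKM in the same order. In both genes the groups by feeding did not overlap, and in refed islets KR was below WT with bounds apart. The fitted changes were 0.82 ± 0.07 for Tra2b (adjusted p = 2.71e-05, limma) and 0.81 ± 0.07 for Srsf2 (adjusted p = 3.87e-05, limma). Srsf7 and Srsf6, named here after their values were seen, were nearly as far apart. Srsf7, an SR protein with a zinc knuckle, read 30.7, 34.9, 57.5 and 53.9 FPKM, and Srsf6 read 51.5, 53.1, 87.4 and 85.6. Their changes were 0.75 and 0.72, that of Srsf1, the founding SR protein, was 0.68, and that of Srsf10, which represses splicing when it is dephosphorylated, was 0.54. Srsf11 rose by 0.28 and Tra2a by 0.34.

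Srsf5 was the SR gene of highest level, with 142 FPKM in WT fasted, 133 in KR fasted, 149 in WT refed and 163 in KR refed. The refed KR library was the highest and the refed WT library stood only slightly above fasted WT. Its change of 0.18 ± 0.07 passed narrowly (adjusted p = 0.0447, limma), and it did not pass with feeding as the only factor or without the mean-variance trend.

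Srsf4 and Srsf9 went the other way. Srsf4, a large SR protein with a long arginine-serine domain, lies on chromosome 4 at 131429553 to 131457640 of mm9 and read 38.2 FPKM in WT fasted, 34.6 in KR fasted, 23.4 in WT refed and 24.2 in KR refed. Both refed libraries were below both fasted ones, with a fitted change of -0.59 ± 0.07 (adjusted p = 0.000198, limma). Srsf9, a short SR protein that also acts on exon choice, read 59.2, 52.8, 43.4 and 40.2 FPKM, and its change was -0.41 ± 0.06 (adjusted p = 0.000559, limma). Srsf12, the rarest SR gene, read 1.27, 1.04, 1.33 and 0.536 FPKM and did not pass (-0.19 ± 0.17, adjusted p = 0.372, limma). Its lowest value was in the library with 16 fragments on the gene.

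**Figure D1:**
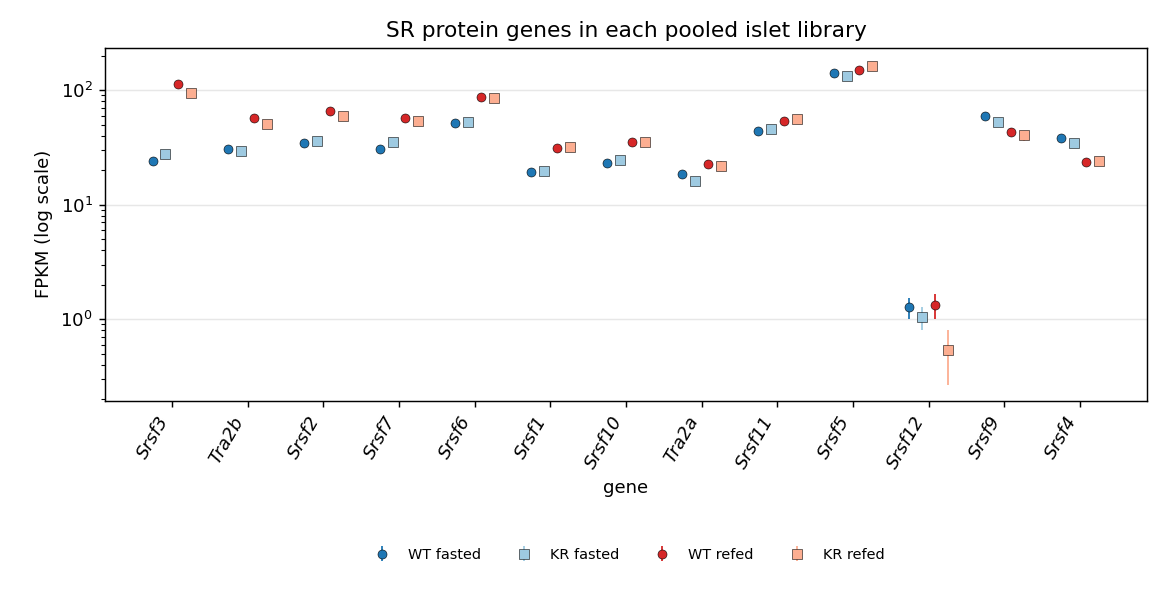
FPKM (log axis) of the 13 SR protein genes in the 4 pooled libraries, with the deposited bounds as bars. The refed points of Srsf3 at 113 and 95.0 stand apart from its fasted points at 24.1 and 27.9, and Srsf4 and Srsf9 run in the opposite direction.

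No kinase of SR proteins rose. Of the 4 Clk kinases 3 fell (75%, beside 29.2% of all tested genes), and Clk1 and both Srpk kinases did not pass. The summed Clk level was 131, 128, 111 and 125 FPKM in WT fasted, KR fasted, WT refed and KR refed.

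Clk3, on chromosome 9 at 57598517 to 57613667 of mm9, read 22.1 FPKM in WT fasted, 20.5 in KR fasted, 12.5 in WT refed and 13.3 in KR refed. The feeding states were well separated and the change was -0.68 ± 0.08 (adjusted p = 0.000137, limma), the lowest of all 62 members. Clk2, a kinase that insulin and feeding are known to stabilise as a protein in mouse liver, read 16.6, 14.5, 10.9 and 13.3 FPKM. Clk4 read 29.8, 27.2, 22.9 and 25.1 FPKM. In both, the refed KR library lay nearer to the fasted ones than the refed WT library did. The bounds of Clk2 and of Clk4 in fasted and refed islets were apart in WT and overlapped in KR. Their changes were -0.34 ± 0.11 for Clk2 (adjusted p = 0.0226, limma) and -0.24 ± 0.08 for Clk4 (adjusted p = 0.0291, limma), and neither passed with feeding as the only factor or without the trend. Clk1, the kinase of the family most abundant here, read 62.0, 65.4, 65.1 and 73.0 FPKM, and did not pass (0.11 ± 0.06, adjusted p = 0.14, limma). Its bounds in fasted and refed islets overlapped in WT and were apart in KR, where the refed library was the higher.

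Srpk1 and Srpk2 load phosphate on SR proteins before they enter the nucleus. Srpk1 read 25.2, 23.5, 20.5 and 21.9 FPKM, just short of the threshold (-0.19 ± 0.07, adjusted p = 0.0543, limma). Srpk2 read 28.2, 30.7, 28.3 and 30.0 FPKM, with a change of -0.01 ± 0.06. Srpk2 sat at the same level in fasted and refed islets of each genotype, within its bounds.

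**Figure D2:**
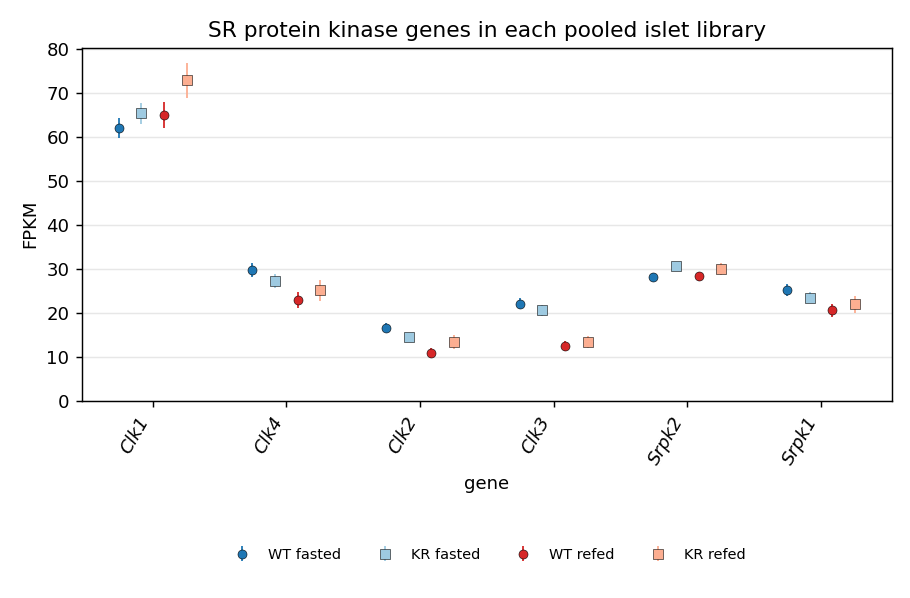
FPKM of the Clk and Srpk kinase genes in the 4 pooled libraries, with the deposited bounds as bars. Clk3 falls from 22.1 and 20.5 in fasted to 12.5 and 13.3 in refed islets, and Clk2 and Clk4 are lowest in refed WT.

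Among the 20 hnRNPs, 11 rose (55%, beside 27.7% of all tested genes), 3 fell (15%, beside 29.2%) and 6 did not pass. The median fitted change of the family was 0.19. Those that rose did so by 0.17 to 1.06 on the log2 scale. Their summed FPKM was 1331 in WT fasted, 1322 in KR fasted, 1688 in WT refed and 1608 in KR refed.

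Hnrnpa2b1, which binds UAG-containing RNA and acts in splicing and in RNA transport, had with Snrpd2 the highest mean level of all members. The gene lies on chromosome 6 at 51410433 to 51419893 of mm9. Its FPKM was 134 in WT fasted, 149 in KR fasted, 244 in WT refed and 257 in KR refed. The refed libraries were the 2 highest by a wide margin, and KR was above WT in both states. The change with feeding was 0.82 ± 0.05 (adjusted p = 1.27e-05, limma).

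Hnrpdl, a relative of the AU-rich element binding protein Hnrnpd, read 24.8, 27.3, 52.7 and 52.3 FPKM. Its change was 0.98 ± 0.07 (adjusted p = 1.36e-05, limma). Hnrnph1, which binds runs of G, read 69.6, 72.1, 132 and 127 FPKM, a change of 0.86 ± 0.06 (adjusted p = 1.46e-05, limma). In both genes the refed libraries lay closer to each other than to the fasted ones. Hnrnpd itself read 14.9, 15.1, 15.5 and 14.2 FPKM and did not pass.

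Hnrnpa1, a repressor of exon inclusion, read 3.97 FPKM in WT fasted, 4.70 in KR fasted, 10.8 in WT refed and 9.44 in KR refed. This row was low for the family and highest in refed WT, with a change of 1.06 ± 0.11 (adjusted p = 7.66e-05, limma). The level of Hnrnpa1 is uncertain, because 46.4% of its 50-base stretches occur in other annotated genes, among them Gm5643 and Gm10052. The deposited rows of both overlap that of Hnrnpa1 on the genome, and how reads were divided between them is not known. Gm10052 holds 46.3% of the stretches and had no usable value. Gm5643 read 29.9, 29.3, 53.5 and 47.2 FPKM, so both rows were higher in refed islets. For their sum, refed against fasted, the log2 ratio was 0.92 in WT islets and 0.74 in KR islets.

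The 3 hnRNPs that fell were Hnrnpul1, Hnrnpa0 and Hnrnpl. Hnrnpul1, a nuclear protein with a role in DNA repair, read 85.5, 80.4, 55.6 and 52.0 FPKM, a change of -0.62 ± 0.06 (adjusted p = 5.9e-05, limma). Hnrnpa0, which binds AU-rich elements, read 40.9, 44.0, 33.6 and 31.4 FPKM, and Hnrnpl, which binds CA repeats, read 77.9, 75.4, 64.1 and 60.2. These changes were -0.38 ± 0.07 and -0.30 ± 0.06. For all 3 genes, both refed libraries were below both fasted ones.

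**Figure D3:**
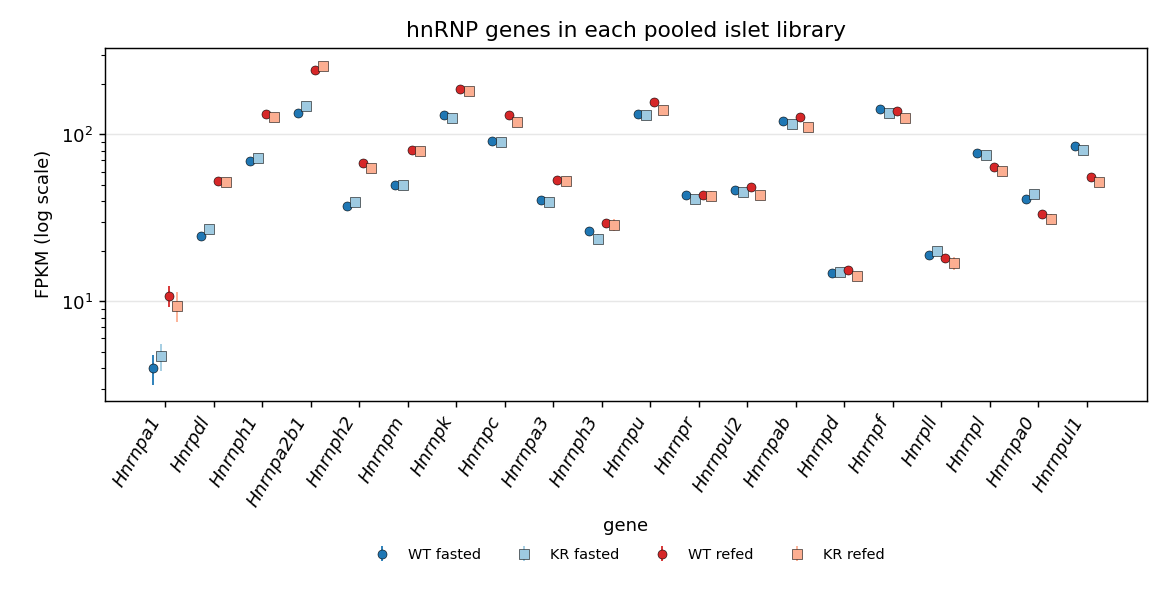
FPKM (log axis) of the 20 hnRNP genes in the 4 pooled libraries, ordered by the fitted feeding change, with the deposited bounds as bars. The row of Hnrnpa1 at the left is the lowest and leaves out the overlapping row of Gm5643. Hnrnpa2b1 reaches 244 and 257 in the refed libraries.

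Of the 12 Snrp genes 8 rose (66.7%, beside 27.7% of all tested genes) and none fell, beside 29.2%. The 8 were the 7 genes of the common Sm ring (Snrpb, Snrpd1, Snrpd2, Snrpd3, Snrpe, Snrpf and Snrpg), by 0.24 to 0.63, and Snrpa1 of the U2 snRNP. Snrpd3 did not pass with feeding as the only factor, and Snrpn, whose protein can take the place of SmB in the ring, did not pass. The bounds in fasted and refed islets overlapped in both genotypes for Snrpf, and in KR for Snrpd3, Snrpg and Snrpa1. Of the 50-base stretches of Snrpf, 89.5% also occur in other annotated genes. The grouping into a ring was made after the values were seen.

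Snrpe had the highest change of the ring, with 66.0 FPKM in WT fasted, 58.4 in KR fasted, 101 in WT refed and 92.2 in KR refed. The refed libraries were clearly above the fasted ones, and the change was 0.63 ± 0.06 (adjusted p = 5.31e-05, limma). Snrpd2, the most abundant Sm gene, read 176, 160, 237 and 210 FPKM, a change of 0.40 ± 0.05 (adjusted p = 0.000319, limma). Snrpd1 read 32.9, 32.3, 44.4 and 47.0 FPKM and rose by 0.47 ± 0.06. Snrpg read 57.3, 63.1, 89.4 and 69.9 FPKM, so that its high value lay mostly in refed WT, and its change of 0.39 ± 0.10 passed (adjusted p = 0.0105, limma).

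Snrpa1, the U2 protein A′, read 11.9, 12.2, 21.4 and 15.8 FPKM. It too was highest in refed WT, with a change of 0.57 ± 0.10 (adjusted p = 0.00161, limma). Its U2 partner Snrpb2 read 34.6, 30.8, 38.3 and 35.0 FPKM and did not pass (adjusted p = 0.0558, limma). The U1 proteins did not pass either. Snrpa read 39.8, 41.0, 37.2 and 35.2 FPKM and Snrpc 24.8, 21.2, 24.5 and 19.2. Snrpn, the SmB-like gene expressed from the paternal allele, read 42.8, 43.4, 39.5 and 38.8 FPKM, with a change of -0.14 ± 0.06 (adjusted p = 0.0872, limma).

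**Figure D4:**
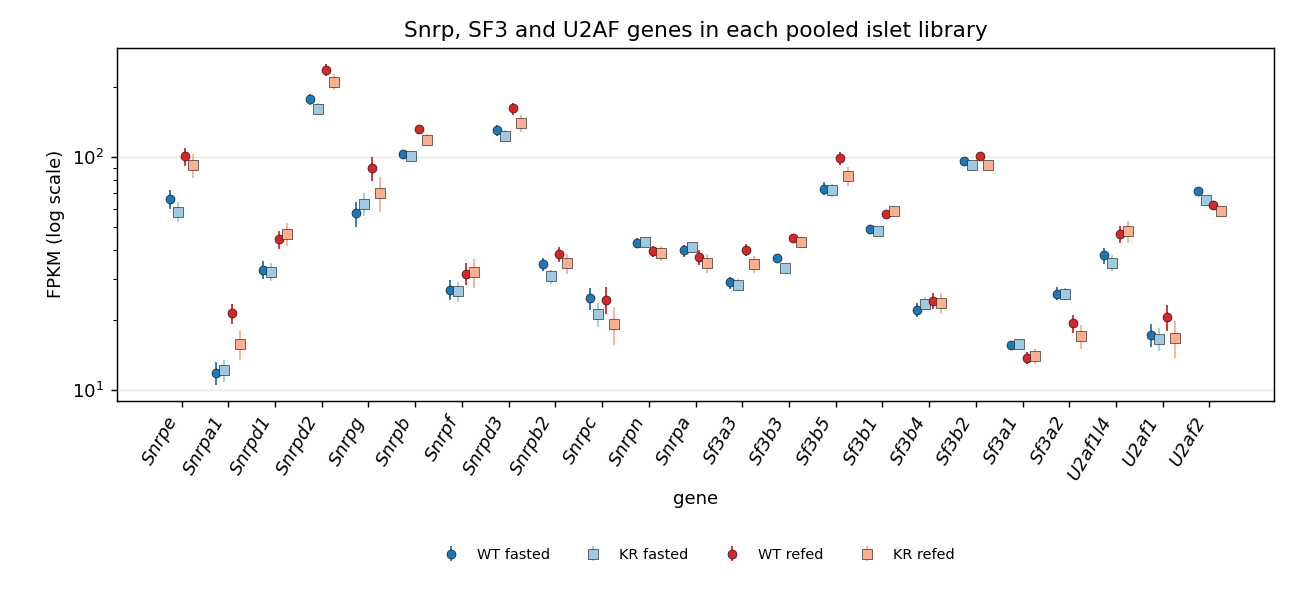
FPKM of the Snrp, SF3A, SF3B and U2AF genes in the 4 pooled libraries, with the deposited bounds as bars. The Sm ring genes such as Snrpd2 (176 and 160 fasted, 237 and 210 refed) are higher in refed islets, whereas Sf3a2 is lower.

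The branch point complexes were split. Of 8 SF3A and SF3B genes, 4 rose, Sf3a2 fell and 3 did not pass. Sf3a3 read 29.0, 28.4, 40.1 and 34.7 FPKM, a change of 0.37 ± 0.07 (adjusted p = 0.00217, limma). Sf3b3 read 36.8, 33.6, 45.2 and 43.4 FPKM (0.32 ± 0.06), and the small subunit Sf3b5 read 73.3, 71.9, 98.8 and 82.8 (0.31 ± 0.07). Sf3b1, the subunit that clamps the branch point, rose by 0.24. Sf3a2 stood against them, at 26.0, 25.9, 19.4 and 17.1 FPKM, with a change of -0.49 ± 0.07 (adjusted p = 0.000569, limma). Sf3b2, the most abundant of the 8, read 96.2, 92.2, 101 and 92.4 FPKM, and Sf3a1 read 15.6, 15.8, 13.8 and 14.0. Neither passed.

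Of the U2AF genes, U2af2, which binds the polypyrimidine tract, read 71.8, 65.6, 62.3 and 58.6 FPKM. Its change was -0.18 ± 0.06 (adjusted p = 0.0262, limma), which did not pass with feeding as the only factor or without the trend. U2af1, its partner at the terminal AG of the intron, read 17.3, 16.7, 20.6 and 16.8 FPKM and did not pass (0.13 ± 0.08). U2af1l4, a paralog of U2af1, read 37.9, 35.3, 46.8 and 48.1 FPKM, a change of 0.37 ± 0.07 (adjusted p = 0.00156, limma). Of its 50-base stretches 97.2% also occur in another annotated gene, Gm49396, so its level may depend on how the reads were assigned. No deposited row overlapped that of U2af1l4.

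Other splicing genes gave a background for the families. Across 6 further lists with 181 tested genes, 68 rose (37.6%), 43 fell (23.8%) and 70 did not pass, beside 27.7% and 29.2% of all tested genes. The share that rose was 27.3% of LSm genes, 21.1% of snRNP assembly genes and 34.6% of other regulators, so the LSm and assembly lists were not above that background. Of 33 Prp19 complex and helicase genes 18 rose and 4 fell (median 0.19), with Ddx46, a helicase of the U2 step, at 0.84 and Prpf38a, a B complex factor, at 0.68 against Bcas2 at -0.35 and Rbm22 at -0.32. Of 35 other U1, U2 and tri-snRNP proteins 11 rose and 6 fell (median 0.08). In that list Ppih, a cyclophilin of the tri-snRNP, changed by 0.90, Snrnp35 of the minor spliceosome by 0.48, the U1-associated Prpf40b by -0.87 and the branch point binding protein Sf1 by -0.44.

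Of 11 LSm genes 3 rose and 4 fell (median -0.07). Lsm3 and Lsm6, which belong to the ring on U6 RNA, changed by 0.71 and 0.61, and Lsm14a and Lsm14b, which act in cytoplasmic mRNA storage, by -0.87 and -0.80. Of 31 SR-related, exon junction and speckle genes 14 rose and 9 fell (median 0.09), among them the exon junction core gene Magoh at 0.73 and Sap18 at 0.70, against Scaf11 at -0.59 and the speckle scaffold Srrm2 at -0.52. The 19 genes of snRNP assembly and export had 4 that rose and 5 that fell (median -0.08), with the cap-binding gene Ncbp2 at 0.36 and the export adaptor Phax at 0.32 against Gemin5, which recognises snRNAs for the SMN complex, at -0.50 and Sart3 at -0.44. Of 52 other RNA-binding regulators 18 rose and 15 fell (median -0.03). The paraspeckle genes Pspc1 and Sfpq changed by 1.02 and 0.79, and Rbm38 and Pcbp2 by -1.13 and -1.08. Pcbp2, a poly-C binding protein, read 221, 210, 105 and 97.4 FPKM in WT fasted, KR fasted, WT refed and KR refed.

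No splicing factor passed the test for genotype. The comparison of KR with WT addresses how FoxO1 that cannot be acetylated at the changed lysines alters islet transcripts. Of the 62 members 0 were higher and 0 were lower in KR by limma, beside 0.602% of all tested genes higher and 0.661% lower. Of the members, 5 had an unadjusted p under 0.05 (8.06%, beside 16.4% of all tested genes). These were Snrpc, Snrpd2, Snrpe, Snrpd3 and Snrpb2, all lower in KR, and they were named after their values were seen. Of the 1955 tested genes with such a p, 1403 were lower in KR. When the libraries were rescaled by the median of gene ratios, the unadjusted p (limma) was 0.0738 for Snrpe, 0.0404 for Snrpd2 and 0.00634 for Snrpc. Fitted genotype changes ran from -0.38 to 0.12. The lowest adjusted p was that of Snrpc, a U1 protein that contacts the 5′ splice site, with 24.8 FPKM in fasted WT and 24.5 in refed WT against 21.2 and 19.2 in KR. Both KR libraries were below both WT libraries, and the change of -0.28 ± 0.07 did not pass (adjusted p = 0.104, limma).

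In fasted islets the median KR against WT ratio of the members was -0.03 on the log2 scale, as for all tested genes. In refed islets it was -0.09 for members and -0.05 for all genes. Of the 20 hnRNPs 19 were below 0 in the refed pair, as were 7642 of the 11953 tested genes, but when the libraries were rescaled by the median of gene ratios, 13 were, with a median of -0.04 in place of -0.09. All 4 Clk kinases were above 0 in the refed pair, by 0.09 to 0.27, and 3 of 4 were below 0 in the fasted pair, and these counts held after rescaling. Of all tested genes 4304 were above 0 in the refed pair and 7139 below 0 in the fasted pair. No member was 2-fold apart between genotypes on the log2(FPKM + 1) scale in either feeding state. Foxo1 itself read 17.4, 14.1, 18.8 and 13.8 FPKM in WT fasted, KR fasted, WT refed and KR refed.

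The refeeding ratios of the genotypes can be set side by side, but their difference has no test with 1 library a group. The ratio was lower in KR than in WT for 39 of the 62 members and for 6700 of the 11953 tested genes. The difference of the log2 refeeding ratios, KR minus WT, had a median of -0.07 over members and -0.02 over all tested genes. Differences are given with a counting error from the deposited bounds, which covers no difference between animals. The 4 lowest were Snrpg at -0.49 ± 0.19, Srsf3 at -0.45 ± 0.06, Srsf12 at -0.45 ± 0.20 and Snrpa1 at -0.44 ± 0.16. The 4 highest were Clk2 at 0.46 ± 0.12, Clk4 at 0.25 ± 0.10, Srsf5 at 0.22 ± 0.05 and Clk3 at 0.19 ± 0.11. Srsf3 thus rose in both genotypes by 2.18 on the log2 scale in WT and by 1.73 in KR, and Clk2 stood at -0.57 in WT and -0.11 in KR. The 4 Clk kinases all had a positive difference, so that their refed levels were closer to fasted ones, or higher, in KR. The refed KR library, which enters every one of these differences, was also the shallowest.

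**Figure D5:**
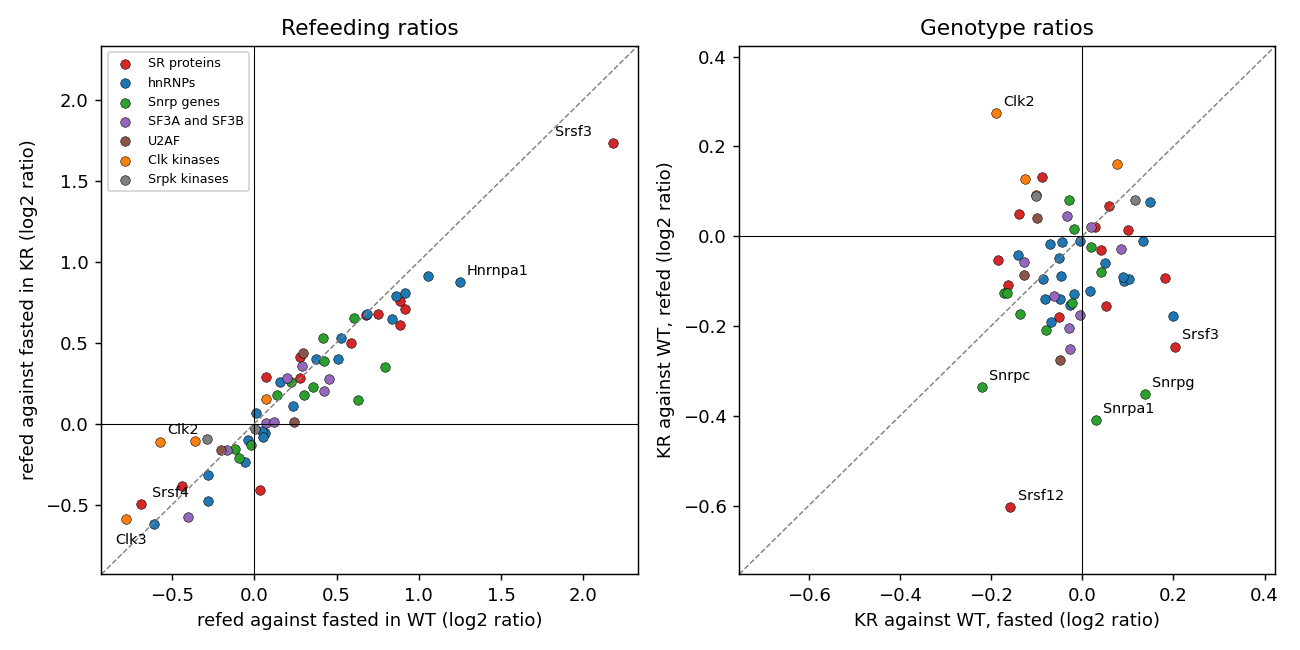
Differences of log2(FPKM + 1) (log2 ratios) for the 62 genes, refed against fasted (left, WT on the x axis and KR on the y axis) and KR against WT (right, fasted on the x axis and refed on the y axis), coloured by family, with the dashed line at equal ratios. Srsf3 lies at 2.18 and 1.73 in the left panel, and the Clk kinases lie above 0 on the refed axis of the right panel.

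The annotation of these genes bears on what a gene-level value can hold. In the GENCODE M21 annotation, 35 of the 62 members (56.5%) have a transcript classed as a target of nonsense-mediated decay, against 29.3% of 10445 tested coding genes. All 4 Clk kinases, all 3 U2AF genes and both Srpk kinases have such a transcript. The share was 84.6% of SR proteins, with 2 such transcripts among the 10 of Srsf3. It was 50% of hnRNPs, 33.3% of Snrp genes and 12.5% of SF3A and SF3B genes. An FPKM per gene adds these transcripts to the coding ones, so the values do not show how much of a change lies in RNA that makes protein. The length of the translated protein matched the annotated coding sequence in 59 of the 62 members, but not in Snrpg, Hnrnpl and Hnrnpm. In these translations the SR proteins held between 9 (Srsf9) and 106 (Srsf4) arginine-serine or serine-arginine dipeptides, and Srsf3 held 25 in 164 residues. Among members with a matching length, no hnRNP held more than 13 and no Snrp protein more than 3. Such dipeptides were not limited to SR proteins, since Clk3 held 26, Clk2 held 21, and Clk1, U2af1 and U2af2 held 15 each.

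Sharing of sequence was common in these families. In 19 members at least 20% of the 50-base stretches occur in another annotated gene on either strand, and 11 of these members rose and 2 fell. Of the other 43, 23 rose and 8 fell, so both directions were found among genes with little shared sequence. Srsf6, Srsf9, Srsf11, Tra2a, Clk1, Clk2 and Clk4 share none, and Hnrnpa2b1 shares 2.44%. In Srsf4, which fell, 65.4% is shared, and in Hnrnpa3, which rose by 0.39, 91% is shared.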

How the data were processed

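The 4 libraries, 1 per genotype and feeding state, were poly-A selected. The submitters' processing notes name bcl2fastq 1.8.4, TopHat2 2.0.4 and build mm9. The values deposited by the authors are FPKM per gene with lower and upper bounds and a status, per the file headers. Which program and annotation gave them is not given in the sources used here. Rows of a symbol were summed, values without the status OK were treated as missing, and coordinates are those of mm9 as deposited.

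The additive model of feeding and genotype was fitted on log2(FPKM + 1) in R 4.3.3 (limma 3.58.1, mean-variance trend on), over 11953 genes whose mean FPKM was 1 or more. Such fold changes understate the change of low genes. P-values are Benjamini-Hochberg adjusted over all genes, with 1 residual and 7.58 prior degrees of freedom, and take the interaction as error. They measure only the spread between these pooled libraries. Errors beside fitted changes are moderated standard errors. Relative depth and counting errors came from the deposited bounds, taken as 2 standard errors from the value, and cover counting error only.

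The members and the lists were chosen with earlier results of these data known. Named are, in each family, the gene of highest mean level and the 3 highest and 3 lowest fitted feeding changes, members at least 2-fold apart in a pair, and the 4 largest and 4 smallest genotype differences of the response. Of each further list, the 2 highest and 2 lowest are named, and members named beside these were chosen after their values were seen. Promoters and transcripts came from RefSeq and GENCODE M21 on GRCm38. Alternatives varied the model, the trend, the prior, the pseudocount, the filter, the scaling and the summing of rows.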

Additional observations from a re-analysis of the deposited data

Results flagged for a closer look

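The KR against WT ratio lay on opposite sides of 0 in fasted and refed islets for 2 members, with the deposited bounds of the libraries apart in both pairs. For Srsf3 the log2 ratio was 0.20 in fasted and -0.25 in refed islets, a difference of -0.449, with bounds of 22.9 to 25.3 FPKM (WT fasted), 26.6 to 29.2 (KR fasted), 110 to 116 (WT refed) and 91.2 to 98.7 (KR refed). For Srsf5 it was -0.09 in fasted and 0.13 in refed islets, a difference of 0.220, with bounds of 138 to 146, 129 to 137, 144 to 154 and 156 to 170 in the same order. With 1 library per group the difference was not tested, and the bounds cover counting error only.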

How the results depend on the processing

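With no filter on low values, 0 members were higher and 0 lower in refed islets by limma, and 0 of 23046 genes were called at all, although 37 members had an unadjusted p under 0.05. In that fit the prior had 0.651 degrees of freedom. The other 7 settings called 37 to 46 members, and every one of these was among the 44 called, except Srpk1 (robust prior, and a mean FPKM of at least 5) and Snrpb2 (a mean FPKM of at least 5, and rescaling). Clk2, Clk4, Hnrnph3, Hnrnpu, Srsf5 and U2af2 were lost with feeding as the only factor and without the trend, and Snrpd3 in the first of these. For genotype, 0 members were called under all 8 settings, while the count over all genes was 151 and ranged from 0 to 252. Rescaling by the median of gene ratios moved the member median of KR against WT in refed islets from -0.088 to -0.031, where the median of all genes became 0. No paired analysis was possible because each group has 1 library and so no second replicate number to block on, and the additive model already sets refed against fasted within each genotype. Leaving out a library leaves no residual degree of freedom. The refed KR library was the shallowest, and its depth limits Srsf12, with 16 fragments. Without that library, the WT pair alone had 45 members above and 17 below 0. Of all 11953 tested genes, 6039 were above and 5908 below 0 in the WT pair, which has no test.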
